A study of Mus musculus with 4 samples.

Results

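The 10 genes described here govern the recruitment and growth of neutrophils and macrophages and were measured in primary squamous cell carcinomas of mice, tumours of squamous epithelium. They were chosen by symbol, with earlier results of these data known, and all 10 were among the 14159 genes analysed. They comprise the CXC chemokines Cxcl1, Cxcl2, Cxcl3 and Cxcl5, their receptor Cxcr2, the colony-stimulating factors Csf1, Csf2 and Csf3, and the calcium-binding alarmins S100a8 and S100a9. RNA sequencing gave 2 libraries of control tumours and 2 of tumours labelled as knockouts of Kdm4a, a demethylase of histone H3. Per the labels, the knockout was inducible and the tumours were not cultured. The protocol field that describes the knockout is worded alike for control samples. The promoter or Cre line behind it, the age and strain of the mice and the number of animals are not given here by the labels. Because nothing says that libraries came from separate animals, p-values measure only the spread between these libraries, which may be technical.

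Chemokines of this family carry a glutamate-leucine-arginine motif ahead of the first cysteines and act on CXCR2, which draws neutrophils out of blood into inflamed tissue. G-CSF, the product of Csf3, drives the production of neutrophils in bone marrow. GM-CSF, from Csf2, activates neutrophils, macrophages and dendritic cells, and M-CSF, from Csf1, keeps macrophages alive. S100A8 and S100A9 pair into calprotectin, which fills the cytosol of neutrophils and is also made by stressed keratinocytes. In squamous tumours these factors are known for bringing in myeloid cells. In RNA from a whole tumour the cells that made a transcript are not known, and fewer cells of a type and less RNA per cell cannot be told apart.

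The 4 chemokine genes lie within a stretch of chromosome 5, all on the plus strand (GENCODE M21 on GRCm38). Cxcl5 spans 90759360 to 90761624, Cxcl3 90786103 to 90789600, Cxcl1 90891241 to 90893115 and Cxcl2 90903871 to 90905938. S100a8 (90668978 to 90670035, plus strand) and S100a9 (90692632 to 90695721, minus strand) neighbour each other on chromosome 3, which also holds Csf1 (107741048 to 107760469, minus strand). Csf2 (54247271 to 54249667, minus strand) and Csf3 (98701263 to 98703629, plus strand) are on chromosome 11, and Cxcr2 (74153989 to 74161246, plus strand) is on chromosome 1. These coordinates describe the genes and not the models on mm9 with which the values were made.

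Several of these genes share an element upstream of the transcription start. RefSeq promoters (GRCm38.p6) were matched for 8 of the 10 genes, all but Cxcl5 and Csf3. In the 250 bases before the start, Cxcl1, Cxcl2 and Cxcl3 each held GGGAATTTCC, a form of the kappaB element bound by NF-kB. Those 10 letters were read from the Cxcl1 promoter itself, so the match in Cxcl1 was fixed in advance. Searched on both strands, they were found in 28 of 32851 mouse promoters of the same length (0.0852%), these 3 genes included. The broader kappaB consensus was found in the same 3 genes and in Csf1, against 3.90% of all promoters. In Cxcl1, Cxcl2 and Cxcl3 the match on the opposite strand overlaps the one on the gene's own strand. The 160 bases before the start are shown for these 4 genes, 5′ to 3′ on the strand of the gene, because 3 of them share the element exactly. Capitals mark the consensus matches of either strand.
Cxcl1, chr5:90891085-90891244, plus strand: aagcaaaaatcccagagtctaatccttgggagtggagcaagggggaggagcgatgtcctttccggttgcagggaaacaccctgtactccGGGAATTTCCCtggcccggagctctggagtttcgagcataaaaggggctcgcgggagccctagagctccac
Cxcl2, chr5:90903739-90903898, plus strand: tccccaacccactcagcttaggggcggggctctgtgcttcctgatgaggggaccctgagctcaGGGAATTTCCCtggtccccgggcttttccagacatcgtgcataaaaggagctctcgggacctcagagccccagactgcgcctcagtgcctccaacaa
Cxcl3, chr5:90785941-90786100, plus strand: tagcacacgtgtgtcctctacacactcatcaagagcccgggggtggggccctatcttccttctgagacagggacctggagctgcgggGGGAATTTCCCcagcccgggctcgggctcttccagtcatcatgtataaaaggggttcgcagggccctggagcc
Csf1, chr3:107760470-107760629, minus strand: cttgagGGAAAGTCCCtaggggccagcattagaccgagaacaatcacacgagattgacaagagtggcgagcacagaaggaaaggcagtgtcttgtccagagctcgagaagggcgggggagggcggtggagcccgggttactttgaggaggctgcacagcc
The element starts 71 bases before the start of Cxcl1, 97 before that of Cxcl2 and 73 before that of Cxcl3. In Csf1 the match GGGACTTTCC lies on the opposite strand, with its far end 154 bases before the start. Distances are from the RefSeq starts, which for Cxcl1, Cxcl2 and Cxcl3 differ from the GENCODE starts given above. The windows of Cxcl1 and Cxcl2 run past their GENCODE starts, so these spacings depend on the annotation. The TATA letters TATAAA were found in Cxcl3 and S100a8, 30 bases before each start (12.4% of all promoters). The C/EBP letters TTGCNNAA were found in Csf2 and S100a9 (9.56% of all promoters), and the AP-1 letters TGANTCA in none of the 8 (6.75%). Both strands were searched for each motif, a match is a run of letters, and no match says only that the letters are not in this window.

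The transcripts of the secreted factors shared a further feature. The AU-rich heptamer TATTTAT, typical of short-lived cytokine mRNAs, was searched on the transcript strand of the longest protein-coding transcript, with overlapping copies counted. It occurred 9 times in Csf2, 7 in Cxcl2, 6 in Cxcl1, 2 each in Cxcl3 and Csf3 and once each in Cxcl5 and Csf1. Cxcr2, S100a8 and S100a9 held no copy. At least 1 copy was present in 30.9% of 21877 protein-coding genes and in 11.05% of those with transcripts of 900 to 1600 nt. Of the genes with a copy, Csf2 (800 nt), Cxcl2 (1859 nt) and Csf1 (4176 nt) lie outside that range of length. Cxcl2 and Cxcl3 also share an identical run of 110 nt, long enough to hold whole reads, so their separate values are uncertain. The longest run that Cxcl1 shares with either is 23 nt, and that between S100a8 and S100a9 is 11 nt.

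Levels are given in FPKM, which scales fragment counts by transcript length and library size, so that genes can be compared. In control tumours S100a8 was the highest of the 10 (mean 100 FPKM), followed by Cxcl1 (64.8), S100a9 (54.6), Cxcr2 (10.7), Cxcl5 (9.52), Cxcl2 (3.50), Cxcl3 (2.57), Csf1 (1.86), Csf3 (1.77) and Csf2 (0.880). Of neighbours in that order only Csf1 and Csf3 overlapped. In knockout tumours the order was S100a8 (153 FPKM), S100a9 (82.2), Cxcl1 (57.6), Cxcl5 (14.3), Cxcr2 (4.94), Cxcl3 (4.91), Cxcl2 (3.13), Csf1 (2.78), Csf3 (0.424) and Csf2, listed at 0. There Cxcr2 overlapped with Cxcl3, and Cxcl2 with Csf1. S100a9 therefore stood below Cxcl1 in both control libraries and above it in both knockout libraries, and Cxcl5 and Cxcl3 likewise moved past Cxcr2 and Cxcl2. The order of Cxcl2 and Cxcl3 is uncertain because of the identical run they share.

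**Figure D1:**
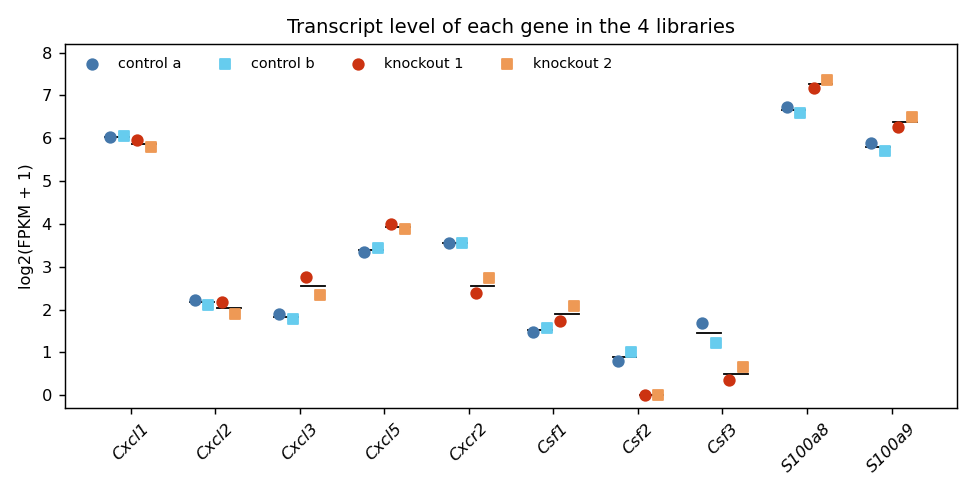
Level of each gene in each library as log2(FPKM + 1), with control libraries in blue, knockout libraries in red and orange, and black bars for group means. S100a8, S100a9 and Cxcl1 lie above 50 FPKM in every library, while Csf2 is listed at 0 in both knockout libraries.

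Differences between the groups were tested with limma on log2(FPKM + 1) across 12046 genes that reached 1 FPKM in at least 2 libraries, and a gene was called at a Benjamini-Hochberg adjusted p under 0.05. Of the 10 genes 9 were tested and 6 were called, 4 higher in knockout (Cxcl3, Cxcl5, S100a8 and S100a9) and 2 lower (Cxcr2 and Csf3). Across all tested genes 63.9% were called, 30.1% higher and 33.8% lower, so a share of 6 in 9 is near the background. The groups did not overlap for 8 of the 9, 5 higher and 3 lower, against 83.9% of all tested genes, 40.4% higher and 43.5% lower. The median log2 fold change of the 9 was 0.39, and that of all tested genes was -0.027. Csf3 passed the filter through its control libraries alone, where it was high, so its call describes these libraries and supports no count of the 10 genes. Kdm4a itself read 29.6 and 27.7 FPKM in the control libraries against 14.9 and 14.7 FPKM in the knockout libraries, so its transcript was lower in both libraries labelled knockout (log2 fold change -0.91, SE 0.07, limma adjusted p = 0.000774).

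Among the ligands of CXCR2, Cxcl5 and Cxcl3 rose and the most abundant, Cxcl1, did not pass the test. Cxcl5, known in mice as LIX and made largely by epithelial cells, read 9.12 and 9.92 FPKM in the control libraries against 14.9 and 13.6 FPKM in the knockout libraries. Both knockout libraries lay above both controls (log2 fold change 0.54, SE 0.09, limma adjusted p = 0.00647). Without control library a the call was lost (0.48, limma adjusted p = 0.063). Cxcl3 read 2.72 and 2.43 FPKM in the control libraries against 5.74 and 4.07 FPKM in the knockout libraries, again with no overlap, and its knockout mean was 1.91 times the control mean (log2 fold change 0.71, SE 0.17, limma adjusted p = 0.0163). That call was lost without control library b (0.65, limma adjusted p = 0.0737) and once the trend of levels with transcript length was taken out (0.54, limma adjusted p = 0.0524). With a pseudocount of 5 the log2 fold change of Cxcl3 was 0.38 and its call was kept.

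Cxcl1, the main CXCR2 ligand of mouse tissue by level here, read 64.0 and 65.5 FPKM in the control libraries against 60.8 and 54.3 FPKM in the knockout libraries. Both knockout values were below both controls, and the difference did not pass (log2 fold change -0.17, 95% confidence interval -0.37 to 0.03, limma adjusted p = 0.113). It passed, as a fall, without knockout library 1 (-0.25, limma adjusted p = 0.0168), with quantile normalization (-0.26, limma adjusted p = 0.0187) and with the length trend taken out (-0.34, limma adjusted p = 0.0232). Cxcl2, known as MIP-2, read 3.71 and 3.29 FPKM in the control libraries against 3.54 and 2.72 FPKM in the knockout libraries. Its groups overlapped (log2 fold change -0.13, 95% confidence interval -0.49 to 0.23, limma adjusted p = 0.453), and without knockout library 2 the difference changed sign (0.013, limma adjusted p = 0.924).

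The sum of these ligands overlapped between the groups, while their shares in it did not, except that of Cxcl2. Ppbp, a further abundant ligand described below, is not part of this sum, so the shares are not shares of all CXCR2 ligands. Cxcl1, Cxcl2, Cxcl3 and Cxcl5 summed to 79.5 and 81.2 FPKM in the control libraries and to 85.0 and 74.8 FPKM in the knockout libraries, and these ranges overlap. Cxcl1 made up 80.5% and 80.7% of the sum in control and 71.6% and 72.7% in knockout. Cxcl5 made up 11.5% and 12.2% in control against 17.5% and 18.2% in knockout, and Cxcl3 3.42% and 2.99% against 6.75% and 5.45%. Cxcl3 stood at 0.732 and 0.737 times Cxcl2 in control and at 1.62 and 1.50 times Cxcl2 in knockout. Because of the identical run that Cxcl2 and Cxcl3 share, this ratio and their separate shares are uncertain. With 2 libraries against 2 an exact permutation test of such a value cannot go below p = 0.333, so these shares and ratios are given with no test.

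**Figure D2:**
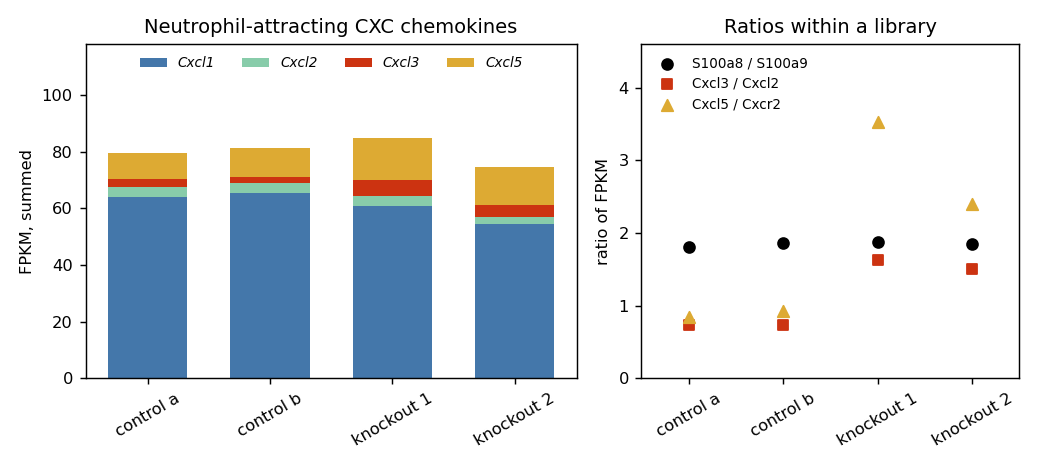
Left, FPKM of the 4 CXC chemokine genes stacked for each library; right, 3 ratios of FPKM within each library. The stacks reach between 74.8 and 85.0 FPKM, the ratio of S100a8 to S100a9 lies between 1.81 and 1.88 in every library, and the ratios of Cxcl3 to Cxcl2 and of Cxcl5 to Cxcr2 are higher in both knockout libraries.

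The transcript of their receptor fell. Cxcr2 stood at 10.7 FPKM in both control libraries and at 4.21 and 5.67 FPKM in knockout, 0.461 times the control mean (log2 fold change -0.99, SE 0.14, limma adjusted p = 0.0035). It was called without each library in turn and under every other alternative run. Cxcl5 stood at 0.851 and 0.927 times Cxcr2 in control and at 3.53 and 2.41 times Cxcr2 in knockout. The CXC chemokines Ppbp and Pf4, encoded beside the others and best known from platelets, were both abundant. Ppbp, whose processed product also acts on CXCR2, read 45.3 and 52.3 FPKM in the control libraries against 51.7 and 45.6 FPKM in the knockout libraries (log2 fold change -0.0021, limma adjusted p = 0.988). Pf4 differed by -0.20 on the log2 scale (limma adjusted p = 0.122) and was called lower without knockout library 2 (-0.29, limma adjusted p = 0.0397) and with the length trend taken out (-0.37, limma adjusted p = 0.0116). The chemokine scavenger genes Ackr1 and Ackr2 lay below 1 FPKM in every library and were not tested.

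The colony-stimulating factors were the lowest of the 10 genes and did not move together. Csf3 read 2.23 and 1.32 FPKM in the control libraries against 0.278 and 0.570 FPKM in the knockout libraries, 0.239 times the control mean. The groups did not overlap (log2 fold change -0.95, SE 0.21, limma adjusted p = 0.013), as a description of a gene tested only because its control values passed the filter. At such low values the fold change depends on the pseudocount, and it was -1.85 with 0.1 and -0.32 with 5, called in each case. The call was lost without knockout library 1 (-0.80, limma adjusted p = 0.0615). Csf2 stood at 0.735 and 1.03 FPKM in control and was listed at 0 in both knockout libraries. It did not reach 1 FPKM in at least 2 libraries, was not tested, and is given no fold, because a gene listed at 0 among FPKM values may be one that could not be estimated.

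Csf1 stood higher in both knockout libraries without passing. The control libraries gave 1.78 and 1.95 FPKM and the knockout libraries 2.34 and 3.22 FPKM, 1.49 times the control mean (log2 fold change 0.39, SE 0.15, limma adjusted p = 0.0726). It passed without knockout library 1 (0.56, limma adjusted p = 0.0199) and with the length trend taken out (0.55, limma adjusted p = 0.039). Without knockout library 2 its difference was 0.22. The ratio of Csf1 to Csf3 was 0.797 and 1.48 in control and 8.40 and 5.65 in knockout, so the macrophage factor exceeded the granulocyte factor in both knockout libraries and in control library b. Csf3 lay below 1 FPKM in both knockout libraries, so the size of the ratio there is uncertain.

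Apart from Cxcr2, which fell, and Csf2ra, which stood lower without passing, the receptors of these factors mostly stood level or somewhat higher in knockout. Of the 14 further receptors and ligands listed, 12 were analysed here, 9 were tested and 4 were called, all higher, beside 30.1% of all tested genes. The median log2 fold change of the list was 0.33, and without control library a or b 1 gene was called higher. Csf1r, the receptor of M-CSF, rose by 0.33 (limma adjusted p = 0.0333) and Il34, its other ligand, by 0.34 (limma adjusted p = 0.0333). Csf3r, the receptor of G-CSF, rose by 0.41 from a control mean of 0.869 FPKM (limma adjusted p = 0.0393) and passed the filter through the knockout libraries alone. Tlr4, a receptor for S100A8 and S100A9, rose by 0.81, from 1.08 and 1.40 FPKM to 2.61 and 3.25 FPKM (limma adjusted p = 0.00668). Of these only Tlr4 was called without each library in turn. Csf1r lost its call without control library a, without control library b and without knockout library 2 (limma adjusted p = 0.0589, 0.22 and 0.0934), Csf3r without any of the 4 (0.0505 to 0.194) and Il34 without control library a or b (0.139 and 0.213) and with the length trend taken out (0.154).

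The subunits of the GM-CSF receptor did not pass. Csf2ra, which binds GM-CSF, read 6.43 and 6.01 FPKM in the control libraries against 3.53 and 5.30 FPKM in the knockout libraries, with no overlap (log2 fold change -0.43, limma adjusted p = 0.0881). It was called lower without knockout library 2 (-0.67, limma adjusted p = 0.00886) and with the length trend taken out (-0.58, limma adjusted p = 0.0361). Csf2rb and Csf2rb2, signalling subunits that share an identical run of 242 nt and so can share reads, differed by 0.17 and 0.38 (limma adjusted p = 0.444 and 0.098). Csf2rb2 was called higher with the length trend taken out (0.62, limma adjusted p = 0.032). Ager, a further receptor for S100 proteins, lay below 1 FPKM in every library.

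S100a8 and S100a9 both rose, at a nearly constant ratio to each other. S100a8 read 105 and 95.4 FPKM in the control libraries against 142 and 164 FPKM in the knockout libraries (log2 fold change 0.61, SE 0.10, limma adjusted p = 0.00463). S100a9 read 57.9 and 51.3 FPKM in the control libraries against 75.8 and 88.6 FPKM in the knockout libraries (0.58, SE 0.11, limma adjusted p = 0.00738). Neither gene overlapped between the groups, and each was called without each library in turn and under every other alternative run. Their ratio was 1.81 and 1.86 in control and 1.88 and 1.85 in knockout, although their levels differed 1.53 and 1.51 times between the group means. The same genes were lower in control library b than in a, and higher in knockout library 2 than in 1.

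**Figure D3:**
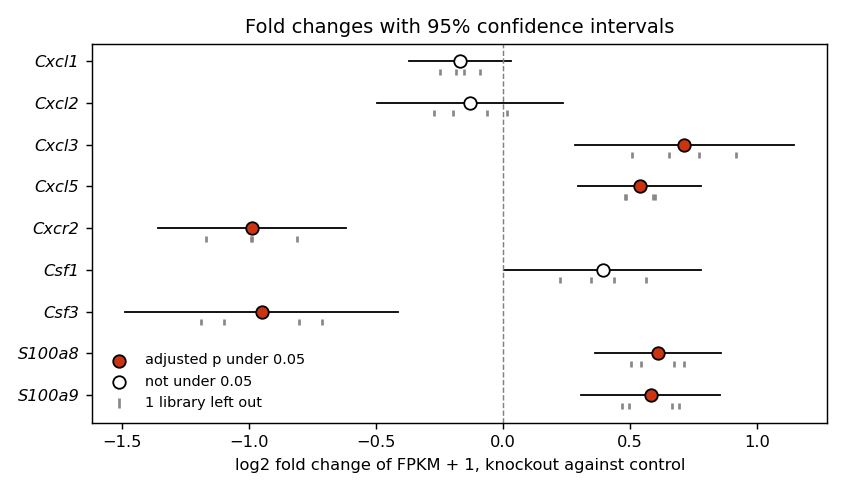
Log2 fold change of the 9 tested genes with its 95% confidence interval from limma, filled where the adjusted p is under 0.05; grey ticks give the value with 1 library left out. Cxcl3, Cxcl5, S100a8 and S100a9 lie to the right and Cxcr2 and Csf3 to the left, and the ticks of Cxcl2 fall on both sides of 0.

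Other neutrophil genes were measured beside these results. Of 24 neutrophil markers listed apart from the 10 genes, 18 were analysed here, 10 were tested and 5 were called, all higher (median log2 fold change 0.39), against 63.9% of all tested genes called and 30.1% called higher. They were Chil3, a chitinase-like protein of myeloid cells (0.60, limma adjusted p = 0.0056), the granule protein genes Camp (0.61, limma adjusted p = 0.0237), Ngp (0.54, limma adjusted p = 0.03) and Ltf (0.35, limma adjusted p = 0.034), and Csf3r, which was tested only because its knockout values passed the filter. Only the call on Chil3 held without each library in turn. Leaving out control library a or b left 2 of the list called, and leaving out knockout library 2 left 1. Camp (limma adjusted p = 0.123 and 0.0884 without control library a and knockout library 2), Ngp (0.109 and 0.0597, the latter at a log2 fold change of 0.34, without control library b and knockout library 2) and Ltf (0.107, 0.275 and 0.0735 without control library a, control library b and knockout library 2) lost their calls. Ngp also lost its call with the length trend taken out (limma adjusted p = 0.082). The 18 markers summed to 81.9 and 79.2 FPKM in the control libraries and to 101 and 126 FPKM in the knockout libraries, and 14 of them were higher in knockout library 2 than in 1. None was listed at 0 in any library, while Cd177, Prtn3 and Il1r2 lay below 1 FPKM throughout. Lcn2, Clec4d and Mmp8 overlapped between the groups (limma adjusted p = 0.479, 0.536 and 0.393). The granule protein genes Mpo, Elane and Prtn3, not tested, lay above both controls in knockout library 1 and below both in knockout library 2. Cd177, Fpr2, Clec4e, Hdc and Il1r2, also not tested, stood higher in both knockout libraries. Ngp stood at 2.67 and 2.32 times Cxcr2 in control and at 8.09 and 7.95 times in knockout. The part of neutrophil content in the S100a8 and S100a9 result was not tested.

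Markers of other cell types moved as well. The shares to read these counts against are the 30.1% of all tested genes called higher and the 33.8% called lower. Macrophage and monocyte markers rose in 8 of 13 tested and fell in 1 (median 0.43). Their 15 genes summed to 597 and 554 FPKM in the control libraries and to 736 and 861 FPKM in the knockout libraries. Leaving out control library a, control library b or knockout library 2 left 3, 1 and 4 of them called higher, and with no filter 5 were. The lysosomal protein gene Cd68 rose by 0.78, the complement gene C1qc by 0.43 and Adgre1, which encodes F4/80, by 0.54. The scavenger receptor gene Msr1 fell by 0.49. Without control library a the adjusted p of C1qc was 0.0607 and that of Msr1 0.0781, and without b those of Adgre1, C1qc and Msr1 were 0.0766, 0.0587 and 0.16. Msr1 also lost its call without knockout library 1 (0.0522) and with the length trend taken out (0.0545). T cell markers rose in 8 of 8 (median 0.97), led by Lat, Cd2 and Cd3g (1.30, 1.30 and 1.05), with sums of 17.8 and 14.2 FPKM for the controls and 38.6 and 41.3 FPKM for the knockouts. Without control library b or knockout library 2, 5 of the 8 were called.

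The squamous label was checked against keratinocyte markers. Krt5, a keratin of the basal layer, read 2301 and 2370 FPKM in the control libraries against 1285 and 1188 FPKM in the knockout libraries. Of 14 tested keratinocyte markers 7 fell and 0 rose by limma (0 at an unadjusted p under 0.05, and 1 with median-ratio scaling, with no filter, with the length trend taken out and without either knockout library). Across all tested genes 30.1% were called higher and 33.8% lower, the shares to read each count of this paragraph against. The stress keratins Krt6a and Krt17 fell by 1.09 and 1.01 and the desmosomal gene Dsc3 by 0.78. Cdh1 (0.21, limma adjusted p = 0.0863) and Sfn (0.083, limma adjusted p = 0.28) stood higher in both knockout libraries without passing. Ivl, not tested, was also higher in both, and Trp63 overlapped between the groups (-0.084, limma adjusted p = 0.528). The 15 markers summed to 9167 and 9336 FPKM in the control libraries and to 5573 and 5477 FPKM in the knockout libraries. Most of each sum came from Krt5, Krt14, Krt6a and Krt17, so it follows these keratins. The part of keratinocyte content in the fall of Cxcr2 and Csf3 was not tested. Fibroblast markers were low apart from Dcn, which read 14.5 to 19.8 FPKM over the libraries. Of the fibroblast markers 0 of 7 were called by limma (0 at an unadjusted p under 0.05, and 1 with the length trend taken out), with 0.22 for Col1a2, 0.15 for Dcn and -0.12 for Pdgfra. Of 10 endothelial markers listed 7 were analysed here and 4 tested, while Cdh5, Kdr and Cldn5 did not reach 1 FPKM in 2 libraries. Of the 4 tested 3 rose, the vascular genes Egfl7 (0.70) and Pecam1 (0.52) and the neutrophil adhesion receptor gene Icam1 (0.66). Pecam1 lost its call without control library b, knockout library 1 or knockout library 2 (limma adjusted p = 0.222, 0.0517 and 0.146) and with no filter (0.0615).

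Among genes of the routes that induce these chemokines in epithelium, the cytokines called were all higher, and receptors differed in both directions. Of 24 genes of the interleukin 17, interleukin 1, interleukin 36 and TNF routes, 19 were analysed here and 15 tested, of which 5 rose and 4 fell (median -0.052), or 2 fell without control library b. With 63.9% of all tested genes called, 9 of 15 is near the background. The 4 that fell were the receptor genes Il17re, Tnfrsf1a and Osmr and the transcription factor gene Cebpb, and the cytokines that rose were Tnf, Il6 and Il1a. Tnf read 7.73 and 7.06 FPKM in the control libraries against 56.9 and 75.3 FPKM in the knockout libraries (log2 fold change 2.99, limma adjusted p = 0.000366). Il6 read 0.626 and 0.331 FPKM in the control libraries against 6.09 and 6.75 FPKM in the knockout libraries (2.33, limma adjusted p = 0.000471), and it passed the filter through the knockout libraries alone. Tnfrsf1a, the main receptor of TNF on epithelial cells, fell by 0.62 (limma adjusted p = 0.00126). Il17rc, a subunit of the interleukin 17 receptor, rose by 0.64 (limma adjusted p = 0.00235) and the alarmin Il1a by 0.82 (limma adjusted p = 0.00798). All 5 were called without each library in turn.

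Genes known to act on NF-kB or on cytokine mRNAs moved in both directions. Of 11 genes of NF-kB feedback and cytokine mRNA decay 5 rose and 3 fell (median 0.24), and without control library a or b 2 rose. The 8 called of 11 are to be read against 63.9% of all tested genes. Tnfaip3, which encodes the NF-kB inhibitor A20, rose by 1.15 (limma adjusted p = 0.00375). Zfp36, whose product tristetraprolin binds AU-rich elements and speeds decay, read 48.5 and 48.7 FPKM in the control libraries against 79.8 and 89.3 FPKM in the knockout libraries (0.78, limma adjusted p = 0.00118). Its relative Zfp36l2 read 457 and 518 FPKM in the control libraries against 139 and 99.8 FPKM in the knockout libraries (-2.03, limma adjusted p = 0.000816). Hnrnpd, which encodes the AU-rich element binding protein AUF1, fell by 0.79 (limma adjusted p = 0.00142, and by 0.40 with the length trend taken out), and Zc3h12a, the endonuclease Regnase-1, fell by 0.88 (limma adjusted p = 0.00917). These 5 were called without each library in turn.

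**Figure D4:**
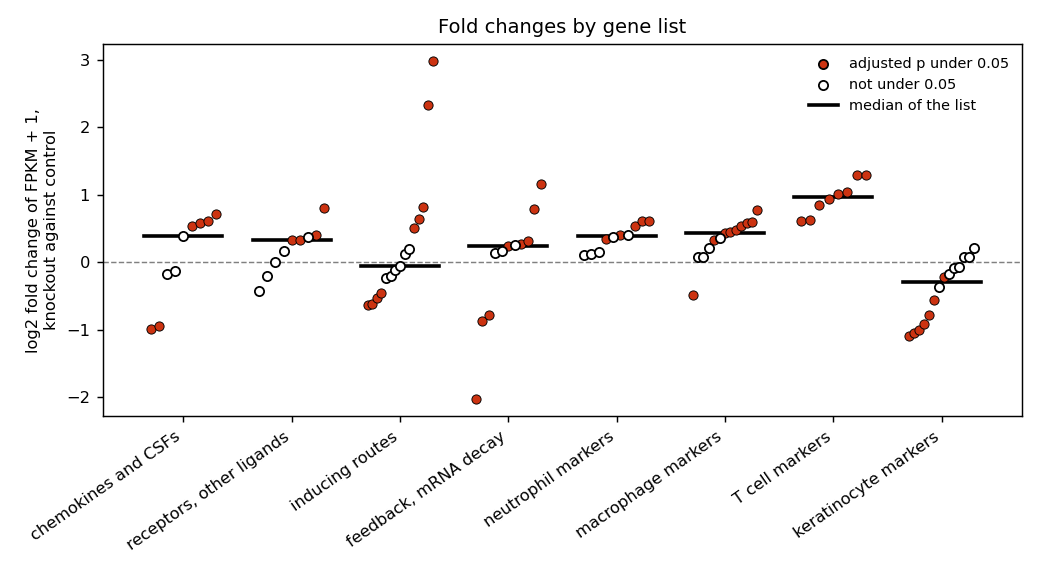
Log2 fold change of each tested gene, knockout against control, in 8 gene lists, filled where the adjusted p is under 0.05, with a bar at the median of each list. The 9 tested chemokine, receptor, colony-stimulating factor and S100 genes spread to both sides of 0, T cell markers lie above it, and Tnf and Il6 are the highest points among the genes of the inducing routes.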

How the data were processed

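RNA of 4 primary mouse tumour libraries was analysed, 2 control and 2 knockout. Per the labels' protocols, RNA was extracted with Trizol, selected on Dynabeads and made into libraries with a stranded Kapa kit. The mouse build mm9 and the tools TopHat and Cufflinks are named, per the submitters' processing notes, without version, annotation or strand setting. The authors deposited FPKM values for 14159 genes in a sheet whose name speaks of CPM. They were read as FPKM because columns sum to 592281 to 626719 and levels do not rise with transcript length. The rank correlation with length across 13658 genes was -0.0504 and -0.0534 in control and -0.130 and -0.157 in knockout. The trend with length thus differed between the groups. Every gene has a mean of at least 0.25 over the 4 columns. The smallest value above 0 is 1.8e-05, too small for a whole read, so depth is unknown and no counting interval is given. The header Control 1 stands over both control columns, so they are called a and b, and the knockout columns carry numbers.

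Genes reaching 1 FPKM in 2 or more libraries were fitted as log2(FPKM + 1) with limma 3.58.1 in R 4.3.3 (eBayes with a trend, 2 residual and 2.93 prior degrees of freedom), two-sided, with Benjamini-Hochberg adjustment over 12046 genes. Fold changes on this scale understate those of low genes. Alternatives changed the pseudocount, filter, scaling, variance model or transcript length trend, or left out a library. Lengths and positions came from GENCODE M21 for 99.1% of genes. The members and the 13 gene lists were chosen with earlier results of these data known. Genes named were all members, Kdm4a, each further receptor or ligand, and the 3 or 5 genes of each list with the smallest p, with up to 3 called against the majority of a list.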

Additional observations from a re-analysis of the deposited data

How the results depend on the processing

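Of 60 genes followed under 13 alternatives, 34 kept their direction and their side of the threshold throughout. The members called higher numbered 3 to 5 and those called lower 2 when 1 library was left out; with a filter of 5 FPKM 5 members were tested and 1 was called lower, because Csf3 was no longer tested, and with no filter Csf2 was also called lower. Across all genes 2437 to 3691 were called higher and 2808 to 4455 lower without 1 library. Differences that changed sign were those of Cxcl2 (-0.27 to 0.013 without 1 library), Csf2rb (-0.052 to 0.39), Ppbp (-0.10 to 0.10, and 0.034 with median-ratio scaling), Dcn (-0.017 to 0.31, and -0.0045 with the length trend taken out) and Pdgfra (-0.25 to 0.021, and 0.28 with the length trend taken out), none of them called. Without 1 library, further receptors and ligands called higher numbered 1 to 3 and lower 0 to 2, genes of the inducing routes called lower 2 to 5, feedback and decay genes called higher 2 to 6 and neutrophil markers called higher 1 to 7. The receptor list had 2 called higher with a filter of 5 FPKM, which tests fewer genes, and 2 called lower with the length trend taken out; the feedback list had 3 called higher by eBayes without a trend. Removing the length trend moved the log2 fold changes of Csf1r, C1qc, Dsc3, S100a14 and Epgn to 0.57, 0.26, -0.48, -0.46 and 0.24, and with a pseudocount of 5 those of the low genes Il6, Tlr4 and Il1a were 1.06, 0.34 and 0.46, all still called. The cause of these shifts was not tested. No paired analysis was possible because both control columns carry the same header and so no replicate number of their own. Depth is unknown, which limits what can be said of Csf2, Csf3 and other genes near 1 FPKM, and each group has 2 libraries.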

Other observations

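Neighbouring genes of the same chromosomal clusters were counted against the 63.9% of all tested genes called, 30.1% higher and 33.8% lower. Of 12 S100 genes listed beside S100a8 and S100a9 on chromosome 3, 11 were analysed here, and 8 rose and 2 fell by limma (median log2 fold change 0.73, against -0.027 for all tested genes). S100a2, among the 8, was tested only because its knockout values passed the filter, so it supports no count. It read 1.07 and 0 FPKM in the control libraries against 7.29 and 1.99 FPKM in the knockout libraries. With the length trend taken out 6 were called higher and 2 lower. S100a3 read 3.73 and 3.01 FPKM in the control libraries against 17.5 and 14.8 FPKM in the knockout libraries (1.97), and S100a1 rose by 1.03. S100a6, a calcium-binding gene widely expressed in epithelium, fell from 1771 and 1796 FPKM to 692 and 774 FPKM (-1.28). S100a14 fell by 0.28, a call lost without control library a or b (limma adjusted p = 0.115 and 0.0977). Without control library b 5 of the list were called higher.

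Around the CXC chemokine genes on chromosome 5, 8 of the 13 listed neighbours were tested, of which 2 rose and 3 fell, a share near that background. The epidermal growth factor family gene Btc, tested only because its control values passed the filter, fell by 0.98 and Mthfd2l, a mitochondrial folate enzyme gene, by 1.39, while Epgn, which encodes epigen, rose by 0.40 and Rassf6 by 0.34. Epgn lost its call without control library b (limma adjusted p = 0.0644) and Rassf6 without control library a or b (0.124 and 0.186) and with the length trend taken out (0.0939). Of 12 neighbours of Csf1, Csf2, Csf3 and Cxcr2, 7 were tested and 5 were called, all higher, beside 30.1% of all tested genes. Among them the mediator subunit gene Med24 near Csf3 rose by 0.89, Ahcyl1 near Csf1 by 0.68 and Aamp near Cxcr2 by 0.53. Rufy4, also near Cxcr2, lay below 1 FPKM in every library and was not tested. It read 0.650 and 0.499 FPKM in the control libraries against 0.116 and 0.257 FPKM in the knockout libraries. With no filter 1 gene of the list was called lower.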
